A study of Pyrus pyrifolia with 2 samples.

Results

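Of the 42341 annotated genes in the deposited gene table of wounded sand pear, 14694 (34.7%) were listed at 0 in both RNA-seq libraries. They are the subject here, and were chosen as the rows with an annotated identifier (prefix Pbr) and an FPKM of exactly 0 in each library, where FPKM is fragments per kilobase of transcript, scaled to the size of the library. The other 27647 annotated genes were above 0 in at least 1 library. The material was the tissue around wounds in fruit of Pyrus pyrifolia, cultivar Nakai."Shuijing", kept at 28 °C and 95% relative humidity. In the control group each wound received 30 μL of sterilized water, and in the treated group 30 μL of suspended cells of the yeast Wickerhamomyces anomalus, with a treatment time of 3 days in both. Each group is 1 library, so no test between the treatments is possible and all shares below describe these 2 libraries and this annotation. The labels name neither the age of the fruit nor how many fruits were pooled.

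A genome annotation lists gene models for every organ and stage of a plant, whereas a fruit uses only some of them. Genes of pollen, seed or root, members of large duplicated families, decayed gene copies and short predicted models are commonly without transcripts in any given tissue. An exact 0 can also come from the estimation step, in which reads that match several places are given to another copy. The genome build is not given, so whether the gene models are those of this cultivar is not known. The files pair no identifier with a gene name or product, so genes that every cell uses could not be checked by name, and the genes are called listed at 0 rather than unexpressed.

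The depth of the libraries placed the limit behind these zeros under 1 FPKM for nearly all of them. The deposited coverage corresponds to an estimated 19367039 read pairs in the water library and 16753518 in the yeast library, and 15784 and 15935 annotated genes were at 0 in each. A count of 0 allows up to 3 read pairs, which at the median coding length of the genes listed at 0 equals 0.258 FPKM in the water library and 0.298 FPKM in the yeast library. That limit was under 1 FPKM for 99.6% of them in the water library and for 97.7% in the yeast library. These limits use the whole coding length and cover counting error only. A lower level of these genes is therefore not shown to be absent.

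The zeros of the 2 libraries largely coincided. Of the genes at 0 in the water library 93.1% were also at 0 in the yeast library, and of those at 0 in the yeast library 92.2% were at 0 in the water library. A further 1090 genes were at 0 in the water library only, with a median of 1 read pair in the other library, and 1241 were at 0 in the yeast library only, with a median of 1.15. The typical gene on the border between 0 and above 0 thus rested on about a single read pair. Among genes above 0, those with up to 1 read pair over both libraries numbered 1125, and those with up to 10 numbered 4840.

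The rows just outside the rule held fractions of a read pair. Pbr024305, with 918 coding bases in a single exon (chromosome 15, minus strand, 24689670 to 24690587), had 0.000281 FPKM in the water library and 0 in the yeast library. Pbr041136, with 228 bases in a single exon (chromosome 2, plus strand, 2058515 to 2058742), had 0 and 0.000524 FPKM. Both values amount to a small part of a single read pair. At the other extreme, genes at 0 in a single library could hold many reads in the other. Pbr029060, with 9 exons (chromosome 9, minus strand, 8325060 to 8334989), had 20.4 FPKM in the water library and 0 in the yeast library. Its locus holds 9 transcripts, 2 of them annotated. Read pairs were counted over the whole locus, so they need not all belong to this gene. Pbr014198, with 8 exons (chromosome 6, plus strand, 8494851 to 8496678), had 55.8 FPKM and 0. In the opposite direction, Pbr020582, with 2 exons (chromosome 8, plus strand, 9326537 to 9328073), had 0 in the water library and 32.6 FPKM in the yeast library. Pbr002436, with 4 exons on chromosome 17, had 5.997 FPKM and 0, and Pbr006608, with 12 exons (chromosome 4, plus strand, 1028083 to 1033319), had 0 and 10.9 FPKM. Such genes were few, with 21 at 1 FPKM or more among those at 0 in the water library only and 34 among those at 0 in the yeast library only.

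Genes listed at 0 were short and had few exons. Their median coding length was 600 bases (quartiles 345 and 1101), against 1128 bases (651 and 1749) for genes above 0. The annotated models hold coding sequence only, since every length is a multiple of 3, so untranslated regions are not counted. The median number of exons was 2 against 4. A single exon was found in 39.4% of the genes listed at 0 and in 22.2% of those above 0, and 10 or more exons in 3.67% and 18.5%. Models under 300 bases made up 18.7% and 6.08%. The median of the mean intron length was 256 bases in multi-exon genes listed at 0 and 305 bases in those above 0. Introns were not shorter throughout, since the upper quartiles were 493.5 and 487.75 bases. A mean intron of 1000 bases or more was found in 8.56% and 6.72%. Both strands were used alike, with 7349 of the 14694 genes on the plus strand.

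Length and exon number each went with the share of genes listed at 0. That share fell from 62.1% of 4433 models under 300 bases to 50.4% at 300 to under 600 bases, 32.6% at 600 to under 1200, 22.3% at 1200 to under 2400 and 12.3% of 3901 models of 2400 bases or more. By exon number it was 48.5% for 1 exon, 47.0% for 2, 34.7% for 3 to 5, 19.5% for 6 to 9 and 9.53% for 10 or more. Within a length class the exon number still separated genes. At 600 to under 1200 bases, 41.2% of single-exon genes and 40.4% of 2-exon genes were listed at 0, against 8.87% of genes with 10 or more exons. Among genes with 10 or more exons the share differed little by length, with 10.8% at 1200 to under 2400 bases and 7.89% at 2400 or more. Among long genes the order changed, since at 2400 bases or more 14.6% of single-exon genes but 23.3% of 2-exon genes were at 0. Shorter models also have a higher detection limit, and the part of that limit in these shares was not tested.

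**Figure D1:**
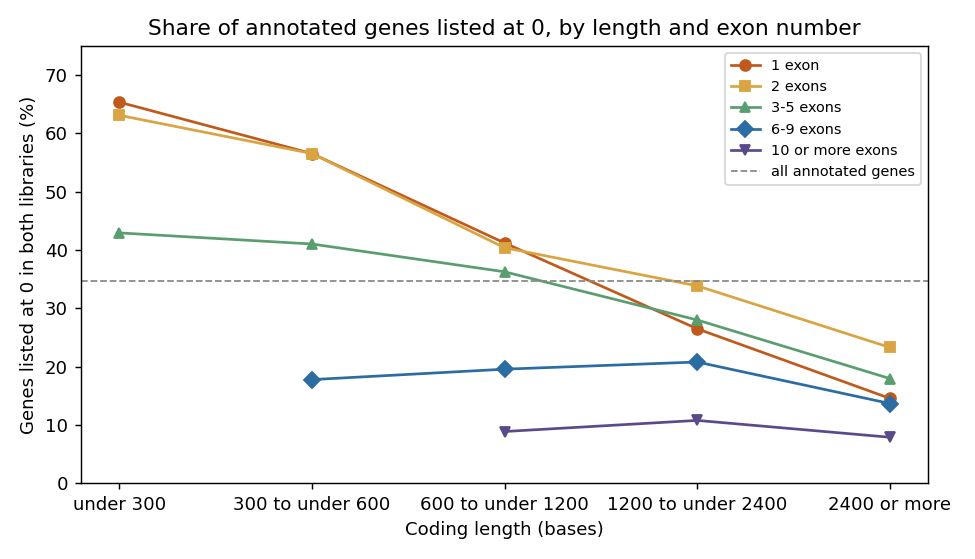
Percentage of annotated genes listed at 0 in both libraries (vertical axis) by coding length in bases (horizontal axis), with a line for each exon class holding at least 50 genes, and the share of all annotated genes dashed. The lines for 1 and 2 exons fall from 65.4% and 63.1% under 300 bases, whereas genes with 10 or more exons stay between 7.89% and 10.8%.

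The share also varied with the lengths of introns. Of multi-exon genes with a mean intron under 100 bases, 58.3% of 1500 were listed at 0. The share was 31.6% at 100 to under 250 bases, 22.4% at 250 to under 500, 27.8% at 500 to under 1000 and 34.5% of 2208 genes at 1000 or more. The lowest share was thus at intermediate intron lengths. By genomic span, 14.6% of 1018 genes spanning 10000 bases or more were at 0, and 11 of 43 spanning 40000 or more.

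Some of the genes listed at 0 had long and elaborate models. The longest coding sequence was that of Pbr018879, with 9111 bases in 21 exons (chromosome 7, plus strand, 13546119 to 13582446). At that length 3 read pairs correspond to 0.0170 FPKM in the water library and 0.0197 FPKM in the yeast library, so this gene had the tightest limit of the set. Next came a pair of 37-exon genes on the same unplaced scaffold. Pbr023588 (41999 to 55691, minus strand) has 8841 coding bases and Pbr023603 (256605 to 270327, plus strand) has 8871, both carry 4852 bases of intron, and they lie 200913 bases apart on opposite strands. Of the 29 annotated genes on that scaffold, 11 were at 0. Pbr040863, on another scaffold (117704 to 127922, plus strand), has 12 exons and 7824 bases, and Pbr004573, on chromosome 11 (23159070 to 23166749, plus strand), has 8 exons and 6912 bases. The most exons, 38, belonged to Pbr036015 on an unplaced scaffold (36161 to 49991, plus strand, 4545 coding bases). Pbr004995 (36 exons, 9784678 to 9794934) and Pbr025164 (32 exons, 13329829 to 13339152), both on the minus strand of chromosome 2, followed.

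The longest spans consisted mostly of intron. Pbr042619 covers 52746 bases of an unplaced scaffold (47739 to 100484, minus strand) with 5 exons and 939 coding bases. Pbr017936, on the minus strand of chromosome 17 (19451925 to 19503624), spans 51700 bases with 9 exons and 1797 coding bases. The next 3 lie within a stretch of chromosome 14. Pbr026147 (6087056 to 6135696, minus strand), Pbr026150 (6207310 to 6255264, plus strand) and Pbr026155 (6330612 to 6378729, minus strand) have 4, 3 and 4 exons, coding lengths of 651, 675 and 867 bases, and intron totals of 47990, 47280 and 47251 bases. They resemble one another in intron length, exon number and the small coding part. In the 1 Mb window that holds them, 26 of 42 genes (61.9%) were listed at 0, and no gene above 0 there spans 10000 bases.

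On the 17 numbered chromosomes 33.2% of 35094 annotated genes were listed at 0, and on 847 unplaced scaffolds 42.2% of 7247. Scaffolds thus held 20.8% of the genes listed at 0 and 15.2% of those above 0. The shift was present in each length class. Under 300 bases the shares were 60.8% on chromosomes and 67.2% on scaffolds, at 600 to under 1200 bases 31.3% and 39.2%, and at 2400 bases or more 11.1% and 19.0%. Genes listed at 0 had similar structures in both places, with median coding lengths of 606 bases on chromosomes and 585 on scaffolds.

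Among scaffolds, those with few genes had the larger shares. Of 149 genes that are alone on their scaffold, 63.1% were listed at 0. The share was 351 of 702 genes on scaffolds of 3 to 5 genes, 41.9% at 11 to 20 and 31.7% on the 11 scaffolds with over 50 genes, which is below that of the chromosomes as a whole. On 182 scaffolds every annotated gene was listed at 0, which took in 480 genes, while 133 scaffolds had none. Of the 182, 94 carry a single annotated gene and 88 carry at least 2.

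Chromosomes varied less than the groups of scaffolds. The share ran from 27.6% of 1270 genes on chromosome 1 to 37.0% of 1766 genes on chromosome 14, with 36.4% on chromosome 11. Per megabase of annotated span, genes listed at 0 numbered between 26.9 on chromosome 11 and 34.1 on chromosome 7, whereas genes above 0 ranged from 47.0 on chromosome 11 to 86.0 on chromosome 1. The density of genes above 0 therefore varied more between chromosomes than that of genes listed at 0. Along the chromosomes, divided into 10 equal parts of their annotated span, the share was 31.4% and 30.0% in the outermost parts and 37.2% in both central parts. The central parts also had fewer genes (2708 and 2782, against 4000 and 4112 at the ends) and slightly shorter ones, with medians of 930 and 894 bases against 1005 and 999.

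**Figure D2:**
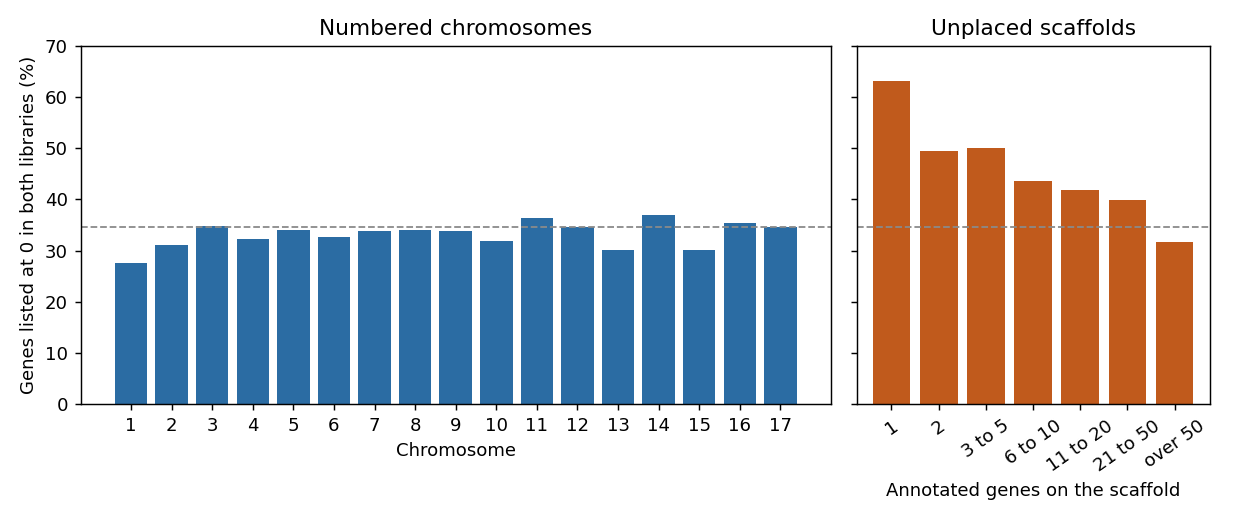
Percentage of annotated genes listed at 0 in both libraries (vertical axis) on each numbered chromosome (left) and on unplaced scaffolds grouped by the number of annotated genes they carry (right), with the share of all annotated genes dashed. Chromosomes lie between 27.6% and 37.0%, and scaffolds fall from 63.1% with 1 gene to 31.7% with over 50.

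At the scale of 1 Mb the share was uneven. In 388 windows with at least 20 annotated genes its quartiles were 29.0% and 39.3%, with a range of 9.76% to 65.9%, and 16 windows had 50% or more. The most genes listed at 0 were found on chromosome 17 (18000001 to 19000000), with 61 of 134. Chromosome 7 (5000001 to 6000000) followed with 55 of 84, then chromosome 11 (22000001 to 23000000) with 53 of 110, chromosome 16 (6000001 to 7000000) with 53 of 130 and chromosome 5 (17000001 to 18000000) with 52 of 137. The second of these, at 65.5%, is far above the chromosome-wide share, while the last, at 38.0%, is a gene-rich window with a share inside the quartiles. The smallest shares were 4 of 41 genes on chromosome 7 (15000001 to 16000000), 17 of 114 on chromosome 1 (10000001 to 11000000) and 8 of 52 on chromosome 9 (22000001 to 23000000). Each is the last window of its chromosome and is cut short, since the annotated spans are 15.3, 10.7 and 22.4 Mb. The lowest share of 9.76% thus comes from a partial window.

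A gene was more often at 0 when its neighbour was at 0. Of the annotated genes that follow a gene listed at 0 on a chromosome, 44.2% were themselves at 0 (5139 of 11631), against 27.7% of those that follow a gene above 0 (6493 of 23446). The order of these shares was the same on 17 of 17 chromosomes, at 32.8% to 48.9% after a gene listed at 0 and 25.3% to 32.4% after a gene above 0. The difference was 16.5 percentage points for the next gene, 6.85 for the second, 2.38 for the fifth and 1.96 for the twentieth, and -0.16 for the fiftieth. Most of the association was thus between immediate neighbours. On the scaffolds the shares were 54.0% and 33.2%. Scaffolds differ widely in their share at 0, which can widen a difference pooled over them, and that part was not tested. Neighbouring genes share sequence origin and annotation, and are not independent of each other.

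**Figure D3:**
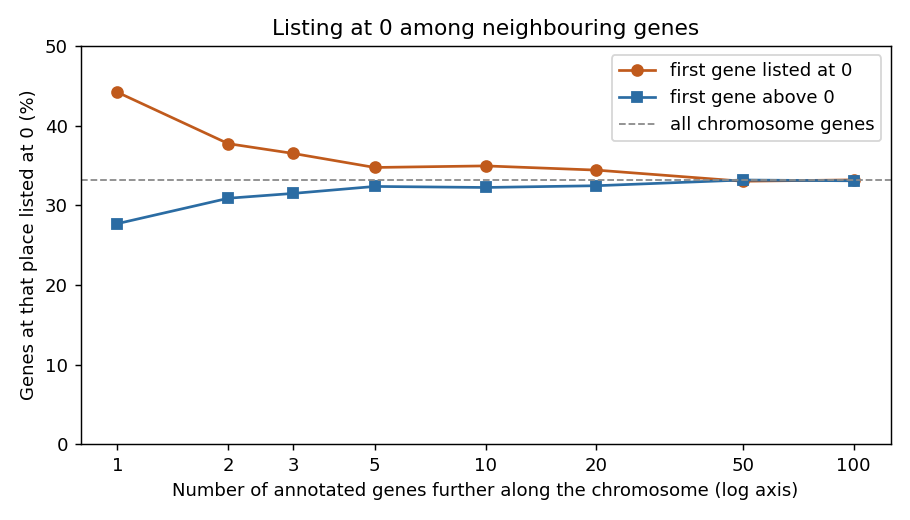
Percentage of genes listed at 0 (vertical axis) at a given number of annotated genes further along the chromosome (horizontal axis, log scale), after a gene listed at 0 (orange) and after a gene above 0 (blue), with the share of all chromosome genes dashed. The lines start at 44.2% and 27.7% and meet near 33.2% at 50 genes.

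The neighbour pattern was present in long as well as short genes. Where both genes had 1200 coding bases or more, 30.0% of those after a gene listed at 0 were at 0, against 16.7% after a gene above 0. Where both were under 600 bases the shares were 65.5% and 42.1%. The difference was largest for close neighbours. With under 1000 bases between the genes, 50.6% of those after a gene listed at 0 were at 0, against 20.6% of those after a gene above 0, and with 20000 bases or more the shares were 43.8% and 35.4%. On the same strand the shares were 47.6% and 28.0%, and on opposite strands 40.0% and 27.4%.

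Neighbours of like structure matched most closely. A pair was called alike when both genes were on the same strand, had the same exon number and differed in coding length by at most 10%, as copies from tandem duplication often do. Among alike pairs, 68.4% of genes after a gene listed at 0 were at 0 (301 of 440), against 23.5% after a gene above 0 (147 of 625). Both genes of an alike pair share the length and exon number that went with the share at 0. The part of this in the difference was not tested. Such pairs were a small part of the whole, at 5.86% of neighbouring pairs with both genes at 0, 2.20% of pairs with 1 gene at 0 and 2.82% of pairs with neither. Without them the shares were 43.2% and 27.8%, close to those of all pairs.

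On the chromosomes, 67.0% of the genes listed at 0 stood in runs of 2 or more consecutive ones. There were 6497 runs in all, counting the 3836 genes that stood alone, and 301 runs of 5 or more held 1842 genes. Runs of 8 or more numbered 49 on 15 chromosomes, and runs of 10 or more 18 on 12 chromosomes. Genes in runs of 8 or more had a median coding length of 573 bases with 42.4% single-exon genes, against 624 bases and 37.8% for genes standing alone, so run members were built much like the rest. Consecutive genes above 0 formed runs of up to 27.

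**Figure D4:**
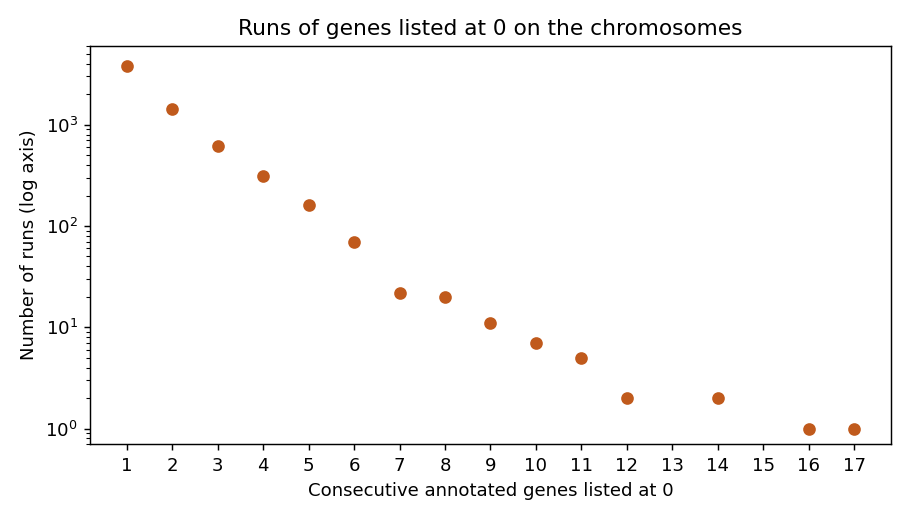
Points give the number of runs (vertical axis, log scale) by the number of consecutive annotated genes listed at 0 in both libraries (horizontal axis) on the 17 numbered chromosomes. Counts fall from 3836 genes standing alone through 161 runs of 5 to single runs of 16 and 17.

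The longest run had 17 genes on chromosome 16 (6268384 to 6328250, Pbr015196 to Pbr015212). All 17 are on the plus strand, have 1 to 3 exons and coding lengths of 171 to 1650 bases, and fit in 59.9 kb. They include 4 genes of 2 exons and 867 to 963 bases, among a variety of shorter models. The gene before the run was at 8.19 FPKM in the water library and 8.02 FPKM in the yeast library. The gene after it, Pbr015213, was at 0 in the water library and 0.208 FPKM in the yeast library. In the water library alone the zeros therefore reached further, over 25 genes up to position 6364896, of which 24 were at 0 in both libraries.

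The next run, of 16 genes on chromosome 11 (22034825 to 22184129, Pbr003335 to Pbr003320), has 15 genes on the minus strand and 13 single-exon genes. Of these, 8 have coding lengths of 645 to 696 bases, so the run is in large part a series of models of nearly the same size. It was flanked by a gene at 0.793 and 0.536 FPKM and by a gene at 51.3 FPKM in the water library and 46.7 FPKM in the yeast library. A run of 12 genes on chromosome 15 (12004213 to 12082933, Pbr034298 to Pbr034309) was the most uniform. All 12 are single-exon genes on the plus strand with coding lengths of 285 to 342 bases, and 9 of them lie between 300 and 330. The gene before this run, a single-exon gene of 393 bases on the same strand, was at 24.3 FPKM in the water library and 31.6 FPKM in the yeast library, and the gene after it at 16.3 and 16.8 FPKM.

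Other long runs were mixed in structure. A run of 14 genes on chromosome 5 (17263347 to 17395863) has genes on both strands with 156 to 2388 coding bases, among them 2 genes of 6 exons with the same coding length of 1359 bases and the same span. The gene before it was at 254.6 FPKM in the water library and 247.8 FPKM in the yeast library, and the gene after it at 0.986 and 1.10 FPKM. A run of 14 on chromosome 6 (21584815 to 21820913) spreads over 236.1 kb. On chromosome 17 a run of 12 (18892936 to 18968530) is separated from a run of 9 (18794164 to 18884637) by a single gene at 5.64 FPKM in the water library and 7.40 FPKM in the yeast library. Chromosome 2 held runs of 10, 8 and 11 genes between 10050916 and 10490524. Most coding lengths of the run of 10 recur in reverse order and on the opposite strand in the run of 11. The run of 10 ends with 1707, 528 and 543 bases, and the run of 11 begins with 543, 528 and 1707. From either end the run of 8 reads alike, with 201, 2097, 492 and 495 bases. Whether these runs are copies of a single block was not tested. Runs of 11 genes also occurred on chromosome 8 (6116158 to 6273503 and 6331274 to 6422810), chromosome 13 (6948372 to 7093432) and chromosome 15 (31630574 to 32369111). The last of these covers 738.5 kb, the widest among runs of 8 or more.

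**Figure D5:**
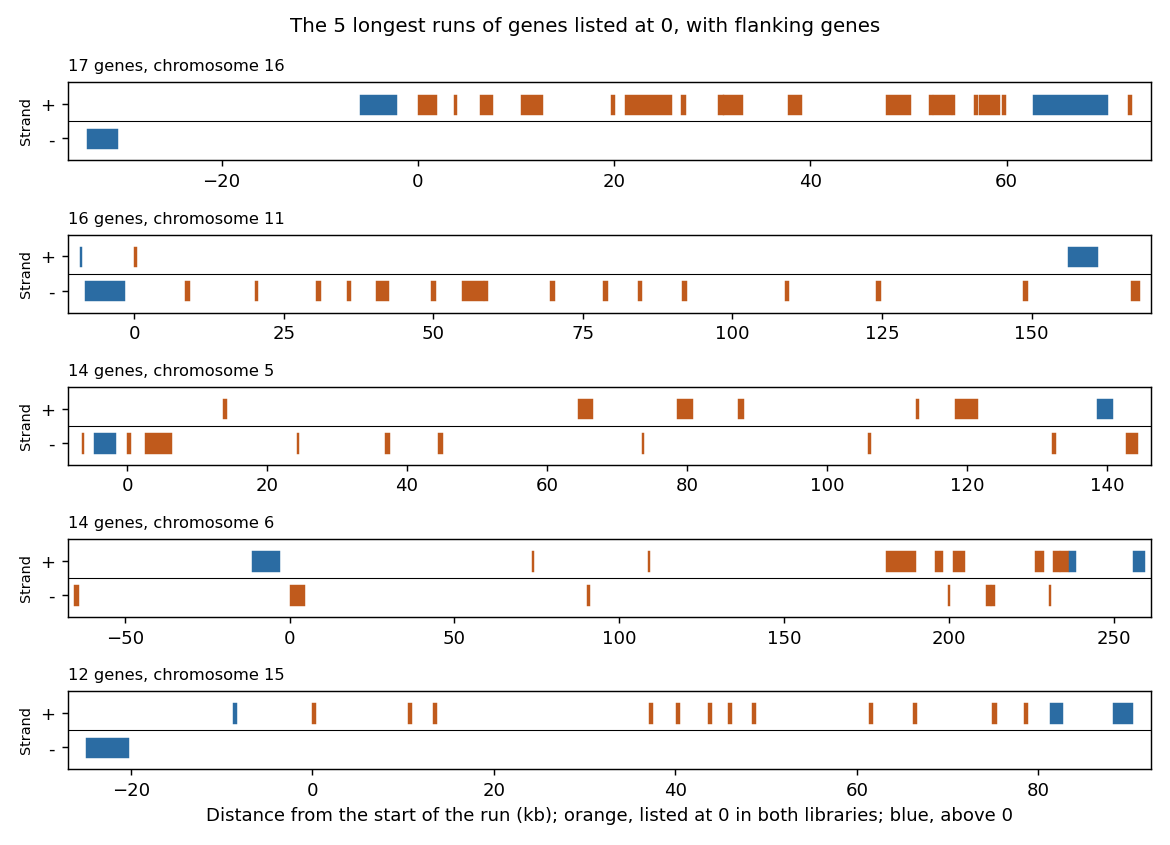
The 5 longest chromosome runs of genes listed at 0, drawn by distance from the start of the run in kb (horizontal axis) and strand (vertical position), with genes listed at 0 in orange and the 2 flanking annotated genes on either side in blue where above 0. The 17 genes on chromosome 16 and the 12 on chromosome 15 are all on the plus strand, whereas those on chromosomes 5 and 6 are on both.

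Runs of 8 or more ended at genes of very different levels. At their 98 ends the bordering gene had a median mean FPKM over both libraries of 5.05, from 0.0140 to 604.9. It was at 10 FPKM or more at 34 ends and under 0.1 at 13. A single gene that separates neighbouring runs counts at each of them. Only 3 of the 49 runs were on a single strand, and 34 held no pair of alike neighbours. In 12 of them a locus above 0 overlapped the run.

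Longer runs occurred on scaffolds, and the examples given here were chosen after their values were seen. On scaffold1053.0, 37 of 38 annotated genes were at 0, 32 of them in a row, and the remaining gene was at 0.0364 FPKM in the water library and 0 in the yeast library. On scaffold1289.0 all 26 genes were at 0, of which 20 have a single exon. Of the scaffolds with 10 or more genes, 7 had every gene at 0 and 248 did not. The 7 had a median of 25.8 genes per 100 kb of annotated span, against 9.48 on the others, with a wide range of 2.71 to 57.3. The lowest of these was scaffold329.0, with 12 genes over 443.1 kb. Single-exon genes made up 64.4% of the 104 genes on them and 28.8% on the rest. What these scaffolds are was not examined by sequence.

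Genes above 0 had lower levels where their neighbours were at 0. On the chromosomes, genes above 0 with neither neighbour at 0 had a median of 5.84 FPKM in the water library and 5.90 FPKM in the yeast library (12364 genes). With 1 neighbour at 0 the medians were 4.67 and 4.68 FPKM (9160 genes), and with both neighbours at 0 they were 2.86 and 2.90 FPKM (1909 genes). The order held in both libraries, with wide overlap, since the quartiles in the yeast library were 1.01 and 19.9 FPKM without such a neighbour and 0.268 and 13.3 FPKM with neighbours at 0 on both sides. The median coding lengths of the 3 groups were 1107, 1164 and 1161 bases, and in each length class the median was lower with both neighbours at 0 than with neither. Read the other way, the share of neighbours at 0 fell with the level of a gene, from 34.1% next to genes above 0 and under 0.1 FPKM to 27.2% at 1 to under 10 FPKM and 22.7% at 100 FPKM or more. Genes under 0.1 FPKM shared the high proportion of single-exon models with genes listed at 0, at 38.9%, and had a median coding length of 1089 bases. Because FPKM divides by length, the same number of reads gives a higher value on a short model. That median length is therefore set in part by the limit of 0.1 FPKM.

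Genes of 3 or more exons that share their exon number, coding length and genomic span with another annotated gene were examined as probable copies. Of the 5761 such genes listed at 0, 11.1% had a match of this kind, against 6.82% of 17953 genes above 0. At 2400 bases or more the shares were 12.0% and 4.20%, and under 300 bases 9.21% and 8.55%. Matched genes mostly had the same status. Of 856 groups of exactly 2 matched genes, 251 had both at 0, 70 had 1 at 0 and 535 had neither at 0. A match of a gene listed at 0 was itself at 0 in 87.8% of cases, and that of a gene above 0 in 6.14%. Where a single gene of the 2 was at 0, the other had a median mean FPKM of 0.108, with 32 of 70 under 0.1 FPKM and 21 at 1 FPKM or more. Among pairs with neither at 0, the higher gene had a median of 6.45 FPKM. Matching was by structure only, sequence was not compared, and how reads of identical copies were shared out is not known.

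Few of the genes listed at 0 overlapped another locus. The span of 340 (2.31%) overlapped that of another locus, against 5.99% of genes above 0, and in each of the 340 cases a locus above 0 was among them. The overlapping locus was on the opposite strand for 210 and on the same strand for 168, with some genes in both groups. In 302 cases (2.06%, against 2.79% of genes above 0) the gene lay wholly inside the span of the other locus. Because exon positions are not in the files used here, whether such a gene sits in an intron of the locus is not known. The rule bears on these contrasts, since a gene whose own locus holds another transcript with reads can take a value above 0 from it. Among genes above 0, 1594 had coverage 0 on their own annotated transcript in both libraries. How far the lower overlap follows from the rule was not tested.

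Of the genes listed at 0 that lay inside another locus, many lay within very wide ones. The most abundant locus that overlaps genes listed at 0 holds 8 of them among 26 annotated genes within its span. The first 5 of the 8 by position are Pbr018717, Pbr018719, Pbr018721, Pbr018722 and Pbr018724, between 9140533 and 9182549 on chromosome 1. This locus is MSTRG.627, an assembled locus on the minus strand of 249.0 kb with 8 transcripts of up to 4 exons, whose transcripts sum to 40579 FPKM in the water library and 42202 FPKM in the yeast library. In all, 168 loci held genes listed at 0 within their span, in 397 gene and locus combinations, and the 25 loci of 100 kb or more held 164 of these. On chromosome 15, MSTRG.8679 (24694065 to 25186923, minus strand) held 14 of them among 27 annotated genes within its span, through an assembled transcript of 2 exons and 1066 bases. A single assembled transcript of 2 exons could thus span many annotated gene models.

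The transcript tables and the gene table coincided for these genes. All 14694 had coverage 0 on their own annotated transcript in both libraries, and each was the only transcript of its locus. Both follow largely from the rule of an FPKM of 0, since assembled transcripts are built from reads. Among genes above 0, 32.6% had further transcripts, and 1594 (5.77%) had coverage 0 on the annotated transcript itself in both libraries, so that their value did not come from that transcript. For 20 genes above 0 the locus of the annotated transcript held no read pair at all. Whether those annotated models are transcribed as drawn is not answered by the gene table.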

How the data were processed

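RNA was measured in 1 library per treatment. The gene table holds FPKM computed and deposited by the authors. Per the file headers, the transcript tables hold FPKM, coverage (a signal per base), exon number and length. The submitters' processing notes list HTSeq 0.6.1 and HISAT2 without saying what each did, and the genome build is not given in the sources used here. Coordinates are those of the tables.

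Each annotated gene was joined to its transcript by name. Genes were ordered by start within a chromosome. Depth came from coverage divided by FPKM, with read pairs of 300 bases inferred from covered bases at weak transcripts, and limits are 3 pairs. The most frequent number of covered bases there was 300 in both libraries. Only 14.8% of these transcripts in the water library and 15.4% in the yeast library had a multiple of 150. Read-pair counts and limits scale with this inferred size. Values were computed with Python 3.11.15, pandas 2.3.3 and SciPy 1.17.1, and the code for runs and neighbours was tested on simulated data with known answers. The genes, groupings and named-gene rule were chosen with earlier results of these data known. Named genes are those with the longest coding length, most exons and longest span, the longest runs, the windows with most and the smallest share, the highest overlaps, and those nearest the threshold. Structural matches, scaffold runs and spans were added after values were seen. The observed runs were compared with no random order, and no test was made. Gene groups by product could not be formed.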

Additional observations from a re-analysis of the deposited data

How the results depend on the processing

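The share of 34.7% listed at 0 was 39.1% with FPKM below 0.1 in both libraries as the limit, 37.3% and 37.6% with the water or the yeast library alone, 38.5% by coverage of the annotated transcript, 31.5% for coding lengths of at least 300 bases, 35.6% without overlapping loci and 33.2% on chromosomes only. The median coding length of 600 bases was 648, 615, 615, 657 and 753 bases under the first 5 of these in the same order. Single-exon genes, 39.4%, were 35.6% by transcript coverage and 33.2% for coding lengths of at least 300 bases. The share of next genes at 0 after a gene listed at 0, 44.2%, was 47.5%, 46.3%, 46.2%, 45.9% and 40.5% under the first 5, and 42.6% with loci of any kind as neighbours. Of 48 recomputed values, 28 stayed within the limits set around the main value. For the number of genes at 0 and the longest run, these limits were a 1.5-fold tolerance in either direction. For the other results they were 95% limits that take genes as independent, although neighbouring genes are not. The longest run of 17 genes became 25 in the water library alone, 22 by transcript coverage and 14 for coding lengths of at least 300 bases. Under all 7 settings the genes at 0 were shorter, more often single-exon and more often followed by another than the remaining genes, and under the 6 that include scaffolds their share was larger there. Settings on chromosomes alone leave neighbours and runs as they were. No paired analysis was possible because there is a single library per treatment, which also means that none can be dropped. Depth limits detection most for the shortest models.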

Other observations

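Rows for assembled loci, which are built from reads, were also searched for zeros. Of 4067 such rows, 10 (0.246%) were listed at 0 in both libraries.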
